A study of Mus musculus with 10 samples.

Results

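KATP and GIRK channels are inward rectifiers, potassium channels that pass current more readily into the cell than out of it and that hold neurons near their resting potential. The 8 genes described here encode the pore-forming subunits of KATP channels (Kcnj11 and Kcnj8), their sulfonylurea receptors (Abcc8 and Abcc9) and the 4 subunits of GIRK channels (Kcnj3, Kcnj5, Kcnj6 and Kcnj9). They were chosen by name from channel biology and not by their measured values, although earlier results of these data were known. All 8 were found among the 25006 genes listed for every neuron. A KATP channel needs both a pore subunit and a sulfonylurea receptor, and it closes when the ratio of ATP to ADP rises, which couples metabolism to excitability in glucose-sensing cells. GIRK channels are opened by the beta and gamma subunits of Gi/o proteins released by receptors such as the opioid and GABA-B receptors. Kcnj6 can form channels alone, while Kcnj3 needs a partner such as Kcnj5, Kcnj6 or Kcnj9 to reach the cell surface. Both channel classes also need the membrane lipid PIP2.

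The RNA came from 10 neurons of the mouse nucleus of the solitary tract (NTS), where visceral signals enter the brainstem, each sucked into a patch pipette from an acute slice and sequenced as 1 library of cytoplasmic and nuclear RNA. All mice were C57BL/6, 3 months old, and carried LepRb-Cre; Halo-eYFP, so that neurons of the leptin receptor lineage were fluorescent; the reporter depends on Cre recombination, which is permanent, and marks a cell whether or not it still makes the receptor. The labels sort the neurons by firing property into type 1 (1-1, 1-2, 4-3, 8-2 and 9-1) and type 2 (6-2, 10-1, 10-3, 9-2 and 9-4), with 5 neurons each and no treatment, and the question is how the types differ. They do not say what the firing properties, the neuron numbers or the animals were. Each type was therefore handled as 1 sample: no test was made, and SDs are between neurons.

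Levels are in CPM, a gene's counts scaled to a common library total. A gene was called detected in a neuron when it reached both 10 CPM and 3 counts. Library totals ran from 9796799 counts in 4-3 to 41844825 in 8-2, and 5315 to 7367 genes were detected per neuron. A count of 0 allows up to 0.306 CPM in the smallest library and 0.0717 CPM in the largest, by counting error only. The libraries were neuronal by their markers, with 9 to 11 of 11 neuronal markers detected in every neuron. Gal, which encodes the peptide galanin, ranged from 1859 to 5124 CPM in type 1 and from 0 to 149.5 CPM in type 2. Gcg, the proglucagon gene, ranged from 0 to 14.1 CPM in type 1 and from 3556 to 17680 CPM in type 2. Microglial RNA was uneven: of 14 microglial markers, 12 were detected in 6-2, 7 in 9-2, 12 in 9-4 and 6 in 1-2, against 0 to 2 in the other 6 neurons.

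The pore genes differ at the selectivity filter, the short stretch that lets potassium through. The 63 coding bases around it are shown for the 6 pore genes because they hold a codon that differs between the classes. They also show how far reads of related subunits can be told apart. They come from the GENCODE M21 transcripts (GRCm38), and capitals mark the 5 codons of the filter:
Kcnj11: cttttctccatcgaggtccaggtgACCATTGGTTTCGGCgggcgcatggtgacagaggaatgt
Kcnj8: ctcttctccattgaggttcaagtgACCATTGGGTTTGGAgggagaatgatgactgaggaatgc
Kcnj3: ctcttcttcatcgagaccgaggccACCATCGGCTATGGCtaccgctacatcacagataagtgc
Kcnj5: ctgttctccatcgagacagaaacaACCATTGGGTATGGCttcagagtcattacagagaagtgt
Kcnj6: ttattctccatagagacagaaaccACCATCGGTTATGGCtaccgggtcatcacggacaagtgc
Kcnj9: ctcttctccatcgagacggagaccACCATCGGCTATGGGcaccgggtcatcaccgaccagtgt
The KATP pores carry a phenylalanine codon (TTC or TTT) as the fourth capital codon, and the 4 GIRK genes carry the tyrosine codon TAT there. Each stretch lies within 1 coding exon: chr7:46099472-46099534 for Kcnj11, chr6:142566424-142566486 for Kcnj8, chr9:32322535-32322597 for Kcnj5, chr16:94832753-94832815 for Kcnj6 and chr1:172326160-172326222 for Kcnj9, all on the minus strand, and chr2:55437603-55437665 for Kcnj3 on the plus strand. Over the whole coding sequence the pore genes were 59.9 to 73.5% identical in pairs, and the longest run of bases shared exactly by any pair was 22. For Abcc8 and Abcc9 the identity was 69.7% and the longest shared run 23 bases.

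GIRK subunits were high in some neurons and nearly absent from others of the same type, and KATP subunits were scarce in both types. Over 10 libraries the 4 GIRK genes held 11079 counts and the 4 KATP genes 785. Of the 80 combinations of a gene and a neuron, 10 met the detection limit, 15 had counts below it and 55 had none.

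**Figure D1:**
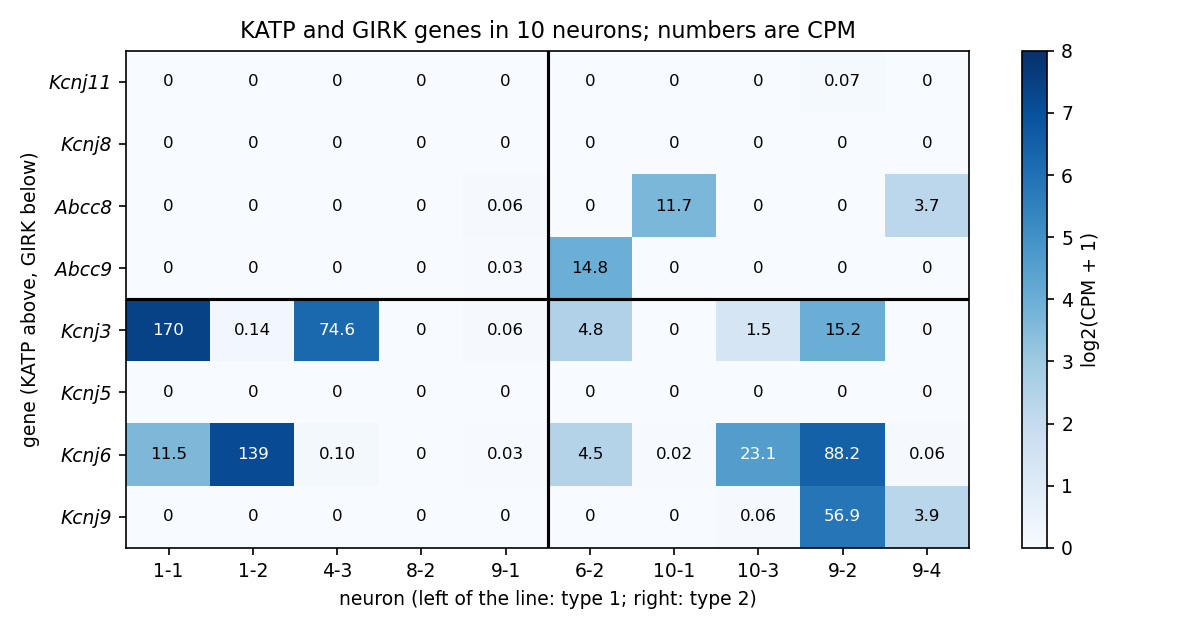
Level of each gene (vertical axis) in each neuron (horizontal axis, type 1 on the left and type 2 on the right), coloured by log2(CPM + 1), with the CPM printed in each cell. Kcnj3 and Kcnj6 fill cells on both sides, Kcnj9, Abcc8 and Abcc9 are above 10 CPM in 1 type 2 neuron each, and Kcnj5 and Kcnj8 are at 0 in all 10.

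Kcnj3 (ENSMUSG00000026824, chr2:55435970-55598145, plus strand) encodes GIRK1, the subunit that depends on a partner. In type 1 it was at 169.5 CPM in 1-1, 0.144 in 1-2, 74.6 in 4-3, 0 in 8-2 and 0.0637 in 9-1. In type 2 it was at 4.84 CPM in 6-2, 0 in 10-1, 1.49 in 10-3, 15.2 in 9-2 and 0 in 9-4. The 2 highest neurons were of type 1 and the third highest of type 2, and the types overlapped, since both held neurons at 0. The type 1 mean was 48.9 ± 74.8 CPM and the type 2 mean 4.30 ± 6.40 CPM (SD, n = 5 each). Neuron 1-1 alone held 63.8% of the CPM summed over neurons. Pooled over libraries, the type 1 level was 29.3 CPM, with an exact Poisson 95% interval from 28.3 to 30.3, and the type 2 level 3.64 CPM, with one from 3.34 to 3.96. Reads copied from the same molecule are not independent, so such intervals hold for counting error alone. The binomial intervals given later for shares of neurons treat the neurons as independent draws, which the labels do not establish.

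Kcnj6 (ENSMUSG00000043301, chr16:94748636-94997701, minus strand) encodes GIRK2, the subunit that can form channels by itself. Its type 1 levels were 11.5 CPM in 1-1, 139.3 in 1-2, 0.102 in 4-3, 0 in 8-2 and 0.0319 in 9-1. Its type 2 levels were 4.51 CPM in 6-2, 0.0240 in 10-1, 23.1 in 10-3, 88.2 in 9-2 and 0.0636 in 9-4. Neurons above 10 CPM and neurons at or near 0 occurred in both types, so the ranges overlapped. The means, 30.2 ± 61.2 CPM for type 1 and 23.2 ± 37.6 CPM for type 2, lay closer together than either SD. Pooled over libraries the order was the opposite, with 18.8 CPM (18.0 to 19.6) for type 1 and 22.7 CPM (22.0 to 23.5) for type 2. Neuron 1-2 held 52.2% of the summed CPM.

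Kcnj9 (ENSMUSG00000038026, chr1:172320501-172329318, minus strand) encodes GIRK3, which joins other GIRK subunits in neurons. It had 0 counts in all 5 type 1 neurons and in 6-2 and 10-1. In the other type 2 neurons it was at 0.0552 CPM in 10-3 (2 counts), 56.9 CPM in 9-2 (1622 counts) and 3.88 CPM in 9-4 (122 counts). Neuron 9-2 held 93.5% of the summed CPM, and the type 2 mean was 12.2 ± 25.1 CPM. Kcnj5 (ENSMUSG00000032034, chr9:32314707-32344350, minus strand), which encodes GIRK4, the partner of GIRK1 in the heart, had 0 counts in all 10 neurons.

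At least 1 GIRK subunit was detected in 5 of 10 neurons (exact binomial 95% interval 18.7 to 81.3%), 3 of type 1 and 2 of type 2. The combinations differed between neurons. Kcnj3 and Kcnj6 were both detected in 1-1, Kcnj6 alone in 1-2 and 10-3, Kcnj3 alone in 4-3, and Kcnj3, Kcnj6 and Kcnj9 together in 9-2. Kcnj3 and Kcnj6 thus met in 2 of 10 neurons (2.52 to 55.6%), 1 of each type. In 4-3, Kcnj3 at 74.6 CPM stood beside 1 count of Kcnj6 and none of Kcnj5 or Kcnj9. Neurons 1-1 and 1-2, which share a type and a first number, differed in both genes: 1-1 had 2538 counts of Kcnj3 where 1-2 had 2, and 172 counts of Kcnj6 where 1-2 had 1930. Summed over the 4 subunits, the type 1 levels were 181 CPM in 1-1, 139.4 in 1-2, 74.7 in 4-3, 0 in 8-2 and 0.0956 in 9-1. The type 2 sums were 9.35 CPM in 6-2, 0.0240 in 10-1, 24.6 in 10-3, 160.3 in 9-2 and 3.94 in 9-4. Library depth moved with these sums in type 1: the 3 neurons with GIRK sums of 74.7 CPM or more (1-1, 1-2 and 4-3) had totals under 20000000 counts, and 8-2, with no count of any GIRK or KATP gene, and 9-1 had totals above it. In type 2 only 6-2 was under that total, and the sums of the 4 deeper neurons ran from 0.0240 to 160.3 CPM. The part of depth in these levels was not tested.

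**Figure D2:**
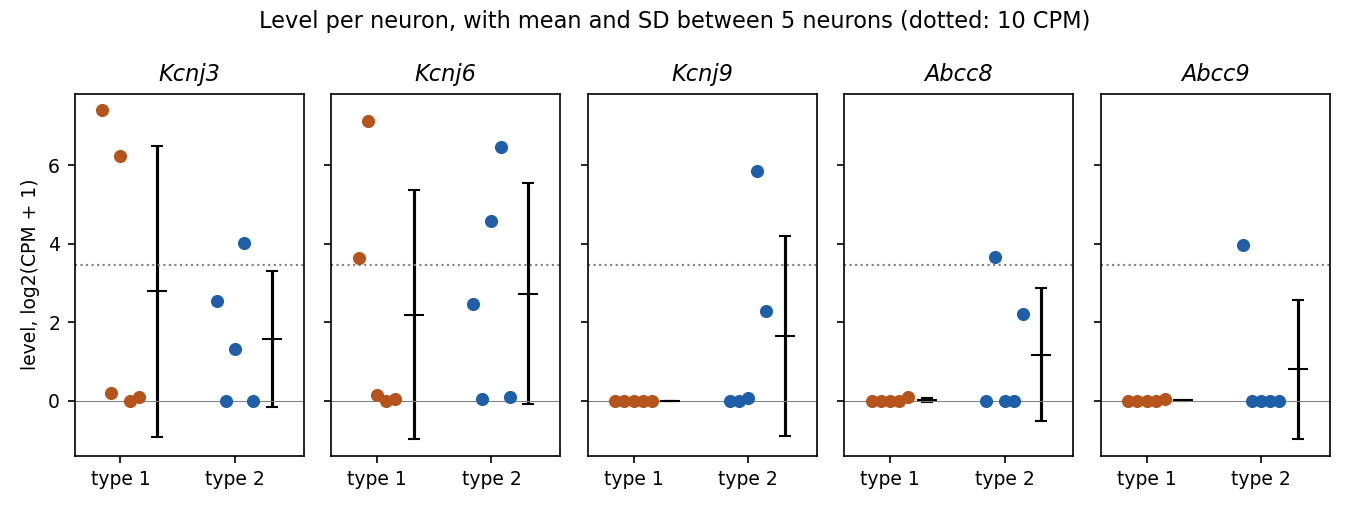
Level as log2(CPM + 1) (vertical axis) of the 5 channel genes whose mean reached 1 CPM, with 1 point per neuron (orange type 1, blue type 2), black bars for the mean ± SD between 5 neurons and a dotted line at 10 CPM. For every gene the points of both types reach 0 or nearly 0, and 1 to 4 of the 10 points lie above the dotted line.

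KATP pore subunits were almost absent from these libraries. Kcnj11 (ENSMUSG00000096146, chr7:46093953-46100764, minus strand), which encodes Kir6.2, the pore of the neuronal and beta cell channel, had 2 counts in 9-2 (0.0701 CPM) and 0 in the other 9 neurons. Kcnj8 (ENSMUSG00000030247, chr6:142564837-142571614, minus strand), which encodes Kir6.1, the pore of the vascular channel, had 0 counts in all 10. These 2 counts of a KATP pore stood among 261837355 gene counts, and neither pore gene met the detection limit in any of the 10 neurons.

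The sulfonylurea receptors were each detected in 1 neuron of type 2. Abcc8 (ENSMUSG00000040136, chr7:46104523-46180033, minus strand) encodes SUR1, the partner of Kir6.2 in beta cells and many neurons. It was at 11.7 CPM in 10-1 (485 counts), 3.66 CPM in 9-4 (115 counts) and 0.0637 CPM in 9-1 (2 counts), and at 0 in the other 7 neurons. Abcc9 (ENSMUSG00000030249, chr6:142587862-142702315, minus strand) encodes SUR2, the receptor of the muscle and vascular channels. It was at 14.8 CPM in 6-2 (180 counts) and 0.0319 CPM in 9-1 (1 count), and at 0 in the other 8. Type 2 means were 3.06 ± 5.06 CPM for Abcc8 and 2.95 ± 6.60 CPM for Abcc9, and the single highest neuron held 75.8% and 99.8% of the summed CPM. The Abcc9 neuron, 6-2, also had 12 of 14 microglial markers detected, summing to 1809 CPM, the highest of the 10 neurons, and the part of that RNA in its Abcc9 level was not tested. Abcc9 also marks mural cells of vessels. Of 13 mural markers, 8 had 0 counts in all 10 neurons and 1 was detected in 6-2, Cald1, which other cells also express. Cald1 was at 25.4 CPM in 6-2, 118.6 in 8-2, 22.8 in 9-2, 19.9 in 9-4 and 10.0 in 10-3. The part of mural RNA in the Abcc9 level was not tested. In 10-1, where Abcc8 was highest, 0 microglial markers were detected.

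No neuron had a KATP pore and a sulfonylurea receptor together. The joint count was 0 of 10 for all 4 pairings (exact binomial 95% interval 0 to 30.8%), also when 1 count of each was enough. Since neither pore gene was detected in any neuron, no other joint count was possible, and it adds nothing to the absence of the pores. When 1 count was enough, only 9-2, with 2 counts of Kcnj11, could have held a pair. At least 1 KATP gene was detected in 2 of 10 neurons (2.52 to 55.6%), 6-2 and 10-1, and in both it was a receptor without a pore. In neither did a GIRK subunit reach the detection limit. Below it, 6-2 held 59 counts of Kcnj3 (4.84 CPM) and 55 of Kcnj6 (4.51 CPM), and 10-1 held 1 count of Kcnj6. The genes of each pore and receptor pair are neighbours on the same strand: Kcnj11 and Abcc8 lie 3758 bp apart on chromosome 7, and Kcnj8 and Abcc9 lie 16247 bp apart on chromosome 6. The detected receptors therefore lay beside pore genes with 0 counts in the same neuron.

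Per kilobase of annotated exon, Kcnj3 had the highest mean level over 10 neurons, 5.10 ± 10.6 CPM per kb. Kcnj6 followed at 3.495 ± 6.29, Kcnj9 at 1.42 ± 4.17, Abcc8 at 0.190 ± 0.462, Abcc9 at 0.177 ± 0.557 and Kcnj11 at 0.00191 ± 0.00603 CPM per kb, with Kcnj5 and Kcnj8 at 0. The difference between each pair of neighbours in this order was smaller than the larger of their SDs. The first places changed when the longest transcript was used as the length, with Kcnj6 at 7.36 and Kcnj3 at 5.10 CPM per kb.

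The comparison of the firing types took the mean log2(CPM + 1) of type 2 minus that of type 1, and a gene was counted when that difference was 2 or more in size, 4-fold on this scale. Of the 11923 genes whose mean reached 1 CPM, 13.5% were higher in type 2 by that size and 7.78% higher in type 1. Kcnj3, Kcnj6, Kcnj9, Abcc8 and Abcc9 passed the limit of 1 CPM and Kcnj11, Kcnj8 and Kcnj5 did not; of the 5, 0 were counted in either direction. Differences were -1.21 for Kcnj3, 0.54 for Kcnj6, 1.64 for Kcnj9, 1.16 for Abcc8 and 0.79 for Abcc9. None exceeded the SD between neurons pooled over both types (the root of the mean variance), which was 2.90, 3.00, 1.80, 1.195 and 1.26 in the same order. The SD within type 1 alone was smaller than the difference for Kcnj9 (0), Abcc8 (0.040) and Abcc9 (0.020), whose type 1 neurons were at or near 0. The median of the 5 was 0.79 and that of all genes tested 0.24, and 4 of the 5 were higher in type 2, as were 56.2% of all genes tested. No gene of the 5 had every neuron of a type above every neuron of the other, which held for 1.44% of genes tested with type 2 higher and 0.587% with type 1 higher.

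**Figure D3:**
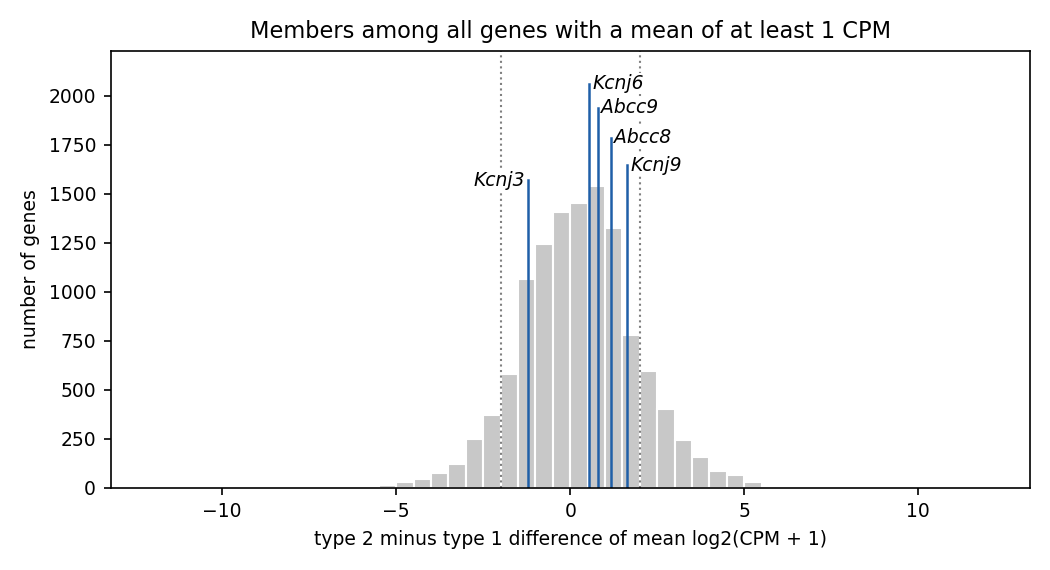
Number of genes (vertical axis) by mean log2(CPM + 1) of type 2 minus that of type 1 (horizontal axis) for the 11923 genes tested, with dotted lines at -2 and 2 and blue lines at the 5 channel genes that passed the same limit. The 5 lines lie between -1.21 and 1.64, inside the dotted lines.

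Most of these differences rested on 1 neuron. Without 9-2 the difference of Kcnj9 was 0.59, and without 10-1 that of Abcc8 was 0.54. Without 6-2 that of Abcc9 was -0.01, so its sign turned. The difference of Kcnj3 was -0.06 without 1-1, and that of Kcnj6 ran from -0.40 without 9-2 to 1.77 without 1-2 and was -0.01 without 8-2. The signs of both also differed between depth sets: in libraries over 20000000 counts the differences were 1.29 for Kcnj3 and 2.78 for Kcnj6, and in those under it, where 6-2 is the one type 2 neuron, they were -2.07 and -1.18. Without 6-2, 9-2 and 9-4, the type 2 neurons with the most microglial RNA, no Kcnj9 count over 2 was left in type 2. The 5 channel genes were also held by few neurons: they were detected in a median of 1 of 10 neurons and at most 4, against a median of 5 for all genes tested. Of those genes, 45.0% were detected in 4 or fewer neurons and 16.5% in 1 or none.

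Of the 8 channel genes, 5 were detected in at least 1 neuron and 2 had 0 counts in all 10, against 47.1% and 41.6% of the 25006 genes listed. Of 9 other inward rectifier genes (Kcnj1, Kcnj2, Kcnj4, Kcnj10, Kcnj12, Kcnj13, Kcnj14, Kcnj15 and Kcnj16), 2 were detected in any neuron. Only these 2, Kcnj2 and Kcnj10, passed the limit of 1 CPM, and neither differed by 2 or more. Over all genes tested, 13.5% were higher in type 2 by that size and 7.78% higher in type 1. Kcnj2, a classical strong inward rectifier, reached 59.8 CPM in 10-3 and ranged from 0.334 to 4.49 CPM elsewhere. Kcnj10, the main glial inward rectifier, reached 22.2 CPM in 9-1 and 44.3 CPM in 9-2 and no more than 0.477 CPM elsewhere. Kcnj10 lies 11891 bp from Kcnj9, on the opposite strand, and 9-2 held the highest level of both.

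The G proteins that open GIRK channels were widely detected. All 5 genes of the alpha i/o list were measured, and Gnai1, Gnai2, Gnao1 and Gnaz were detected in all 10 neurons, those without GIRK counts included. Gnai3 differed most, with means of 27.4 ± 60.9 and 58.0 ± 51.3 CPM (difference 3.21, detected in 1 and 4 neurons), and was the 1 gene counted as higher in type 2. Of 15 genes of the beta and gamma list, which encode the subunits that bind the channel, 11 passed the limit of 1 CPM. Of these, 2 were higher in type 2 by 2 or more and 1 higher in type 1. Over all genes tested, 13.5% and 7.78% were past that size. Gnb5, the beta subunit that pairs with R7 RGS proteins, had means of 237 ± 299.9 CPM (type 1) and 318.5 ± 199.2 CPM (type 2), a difference of 2.34. Gng4 had means of 109.2 ± 105 and 167.7 ± 71.0 CPM (difference 1.80). Gnb1, Gnb2, Gng2, Gng3 and Gng10 were detected in all 10 neurons, although Gng3 shares exon bases with a counted gene on the other strand and is uncertain.

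Receptors that couple to Gi/o proteins were present in every neuron. Of 35 such receptors, 21 passed the limit, with a median difference of 1.12. By 2 or more, 7 were higher in type 2 (Oprm1, Chrm2, Adra2c, Sstr2, Npy1r, Grm7 and Grm8) and 1 higher in type 1 (Drd2). The shares of all genes tested past that size were 13.5% and 7.78%. Oprm1, Adra2c, Sstr2 and Npy1r were each detected in only 2 neurons, of type 2, and Drd2 in only 2, of type 1. Grm8 was detected in 1 neuron of type 1 and 3 of type 2. Chrm2, the M2 muscarinic receptor, had means of 44.8 ± 61.0 and 180.1 ± 153.4 CPM (difference 3.85, detected in 2 and 5 neurons), but it shares exon bases with a gene on the opposite strand that has counts, so its value is uncertain. Grm7, a presynaptic glutamate receptor, was detected in 1 and 3 neurons (14.0 ± 31.3 against 114.4 ± 142.7 CPM, difference 3.88). The number of receptors detected was 5 in 1-1, 4 in 1-2, 4 in 4-3, 9 in 8-2 and 7 in 9-1, and 8 in 6-2, 8 in 10-1, 8 in 10-3, 11 in 9-2 and 9 in 9-4. Neuron 8-2, with no GIRK count, thus had more receptors detected than any other type 1 neuron. It was also the deepest library (41844825 counts) and had the most genes detected of type 1 (7073). The part of depth in the number of receptors was not tested. Chosen after their values were seen, Gabbr1, a subunit of the GABA-B receptor, was at 83.3 to 284.8 CPM and Oprl1, the nociceptin receptor, at 10.1 to 662.6 CPM over the 10 neurons. Gabbr2, the other GABA-B subunit, was detected in 9 neurons and was at 1.84 CPM in 9-4 (difference -1.69).

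RGS proteins speed the closing of GIRK channels by turning G proteins off. Of 21 genes of RGS proteins and GIRK partners, 17 passed the limit, with a median of -0.22. Of these, 5 were higher in type 2 by 2 or more and 2 higher in type 1, beside 13.5% and 7.78% of all genes tested. Those higher in type 2 were Rgs2, Rgs11, Rgs12, Rgs20 and Rgs7bp, of which Rgs11 and Rgs20 also share exon bases with counted genes and are uncertain, and those higher in type 1 were Rgs4 and Snx27. Rgs4 ranged from 353.9 to 1917 CPM in type 1 and from 0.492 to 592.9 CPM in type 2 (difference -4.34), and the ranges overlapped through 10-3. Rgs7bp, which anchors R7 RGS proteins at the membrane, had means of 68.5 ± 123.4 and 93.7 ± 54.5 CPM (difference 2.70). The list of 13 PIP2 synthesis genes also holds the phosphatases Synj1 and Inpp5e, and all 13 passed the limit. By 2 or more, 2 were higher in type 2, beside the same 13.5%. These were the PIP2-making kinases Pip5k1b, at most 0.0668 CPM in type 1 but 51.8 CPM in 6-2, 135.7 in 10-3 and 121.7 in 9-2 (difference 4.00), and Pip5k1c, with means of 60.2 ± 80.8 and 113.1 ± 60.02 CPM (difference 3.24).

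Of 24 genes of glucose sensing and energy charge, the signals read by KATP channels, 21 passed the limit. Of these, 3 were higher in type 2 by 2 or more and 1 higher in type 1. The shares of all genes tested were 13.5% and 7.78%. Prkaa1, a catalytic subunit of the energy sensor AMPK, was at 69.9 ± 104.6 and 68.2 ± 48.4 CPM, with a log2 difference of 2.49 although the mean CPM was nearly equal.

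**Figure D4:**
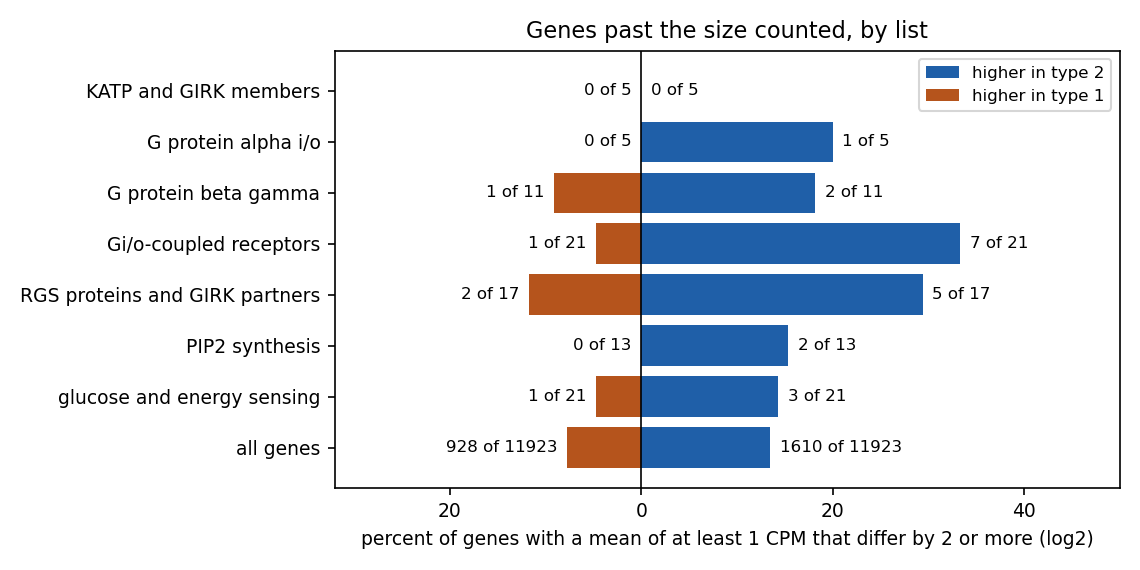
Percent of the genes of a list that passed the limit of 1 CPM (horizontal axis) with a type 2 minus type 1 difference of 2 or more in size, for each pathway list (vertical axis) and direction, beside the same percent over all 11923 genes tested. Receptors (7 of 21) and RGS proteins and partners (5 of 17) have the longest bars toward type 2, and the channel genes themselves have 0 of 5 in both directions.

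Marker lists of other cells gave the following values beside these results, and their part in them was not tested. Microglial markers had 8 of 14 genes higher in type 2 by 2 or more and 0 in type 1, beside 13.5% and 7.78% of all genes tested. Their summed level was 0.0668 to 895.9 CPM in type 1 and 4.23 to 1809 CPM in type 2. Tyrobp, a microglial adaptor protein, was at 124.2 CPM in 6-2, 120.5 in 9-2 and 111.7 in 9-4 and at most 3.27 CPM elsewhere. Csf1r, the receptor microglia need to survive, differed by 3.58 but shares exon bases with a counted gene on the other strand. Of 10 astrocyte markers 6 passed the limit of 1 CPM and 1 was higher in type 1 by 2 or more (S100b, difference -2.22), while Aldoc, which neurons can also express, differed by 1.92 and was detected in all 10 neurons. Of 11 oligodendrocyte lineage markers 5 passed and 2 were higher in type 2, among them the myelin gene Cnp (2.02, uncertain for the same reason as Csf1r). Of 13 mural and 8 endothelial markers, 1 and 2 passed, and 0 differed by that size. Of 11 neuronal markers, 1 was higher in type 2 and 2 higher in type 1 by 2 or more, the latter being Rbfox3, which encodes NeuN (-3.56), and Nefl, a neurofilament gene that overlaps Nefm (-3.47).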

How the data were processed

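The authors deposited 1 table of raw counts of reads per gene for each neuron, per the file headers, with no normalization. The submitters' processing notes name cutadapt 1.13, STAR, HTSeq 0.6.1p1, DESeq2 and the mm10 build; for the order of steps, annotation release, strand option and amplification, nothing was found: not given in the sources used here. Without the strand option, reads of Kcnj3, Kcnj6, Kcnj9 and Abcc9 cannot be separated from antisense genes that share 158 to 1621 of their exon bases; the antisense partner of Abcc9 had 0 counts and the other 3 are not listed in the tables. Symbols were matched by identifier for 24942 of 25006 genes, and all 8 channel genes matched.

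CPM and log2(CPM + 1) were computed with Python 3.11.15, pandas 2.3.3 and scipy 1.17.1. Lengths are the union of GENCODE M21 exons. Alternative scalings used edgeR 4.0.16 and DESeq2 1.42.0, with no test fitted. The genes and lists were chosen with earlier results of these data known. From each list, the text names the 2 genes that differed most, provided 3 neurons of either type detected them; other genes named were chosen after their values were seen. Of the genes this rule chose, 2 are not reported here. For a gene detected in at least 5 neurons the 3 genes most like it were to be named; no channel gene reached that number. No library was a copy of another: in each of 45 pairs, counts differed by more than sampling noise. The procedure was tested on simulated data, with changes placed only in genes of a higher mean level than any channel gene. That test therefore does not show how the procedure performs at the levels of the channel genes.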

Additional observations from a re-analysis of the deposited data

Results flagged for a closer look

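Of 16 combinations of a channel gene and a firing type, 10 had a level that varied between neurons, and in 4 of these 1 neuron stood apart from the other 4 by Dixon's ratio. In each, the other 4 neurons had 0 counts, so the ratio is 1 whatever the level of the neuron above 0, and the usual chance of about 1 in 20 groups does not hold for them. They were Abcc9 in type 2 neuron 6-2 at 14.8 CPM (180 counts), Kcnj11 in type 2 neuron 9-2 at 0.0701 CPM (2 counts), Abcc8 in type 1 neuron 9-1 at 0.0637 CPM (2 counts) and Abcc9 in the same neuron 9-1 at 0.0319 CPM (1 count). The last 3 rest on at most 2 counts and lie below the limit for detection.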

How the results depend on the processing

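The number of channel genes higher in type 2 by 2 or more, 0 as reported, was 2 with a pseudocount of 0.1, with the ratio of mean CPM, in neurons with first number 9 and in libraries over 20000000 counts. It was 1 with the median over neurons and in libraries under 20000000 counts, 2 at a size of 1, and 0 to 1 on leaving out each neuron in turn, with 1 without 6-2, 10-1 or 10-3. The number higher in type 1, 0 as reported, was 1 with the ratio of mean CPM, in libraries under 20000000 counts, without 6-2, 9-2 and 9-4 and at a size of 1, and 0 on leaving out each neuron. The number higher in type 2 by any amount, 4 as reported, was 1 in libraries under 20000000 counts. The 5 genes detected in at least 1 neuron fell to 3 at 20 CPM. The share of all genes tested that was higher in type 2 and in type 1 by 2 or more was 24.4% and 12.5% with a pseudocount of 0.1, and 2.31% and 1.59% with 10. It was 13.9% and 13.7% with the ratio of mean CPM, 16.8% and 10.4% with the median over neurons, 28.7% and 17% in first number 9, 13.9% and 16.4% in libraries over 20000000 counts, 29.4% and 13.5% in those under it, and 17% and 15% without 6-2, 9-2 and 9-4. It was 13.3%, 14.9% and 14.8% for type 2 without 6-2, 10-1 and 10-3 in turn, and 52.7% of genes differed by 1 or more in either direction. The sign of Kcnj3 turned with the median over neurons (1.12), in first number 9 (1.92) and in libraries over 20000000 counts (1.29). That of Kcnj6 turned with the ratio of mean CPM (-0.37) and in libraries under 20000000 counts (-1.18). That of Abcc9 turned in first number 9 (-0.045), in libraries over 20000000 counts (-0.023) and without 6-2, 9-2 and 9-4 (-0.009). With the median over neurons the differences of Abcc8 and Abcc9 were 0. In libraries under 20000000 counts those of Abcc8 and Kcnj9 were 0. TMM scaling moved the median of all genes from 0.24 to 0.39, and relative to it Kcnj3 was at -1.44 and Kcnj9 at 1.31, against -1.45 and 1.40 as reported. The cause of these changes was not tested. No paired analysis was possible because the types share a single first number, 9 (9-1 against 9-2 and 9-4), and the labels do not say what the numbers mark. A single library per cell cannot separate a transcript lost before sequencing from one that was absent.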
